A study of Homo sapiens with 9 samples.

Results

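The replication-dependent histone cluster on the short arm of chromosome 6 (band 6p22) was examined by ATAC-seq, an assay of open chromatin in which the transposase Tn5 cuts accessible DNA and tags it with adapters. The members were the ATAC-seq regions on chromosome 6 whose centre lay in either of the windows chr6:26010000-26300000, called proximal here, or chr6:27770000-27900000, called distal (GRCh38). They numbered 40 of the 148797 regions in the count table, 26 in the proximal window of 290 kb and 14 in the distal window of 130 kb. Of the 40, 32 touched a histone gene, meaning that the region overlapped the gene or lay within 250 bases of it, and 8 did not. The windows are defined by position and by no measured value, though they were chosen with earlier results of these data known.

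All libraries came from the human neuroblastoma line SK-N-BE(2)c, lipofected with an antisense oligonucleotide (ASO) at 100 nM and collected 48 h later. The NCA group received a negative control ASO, and the ASO2 and ASO10 groups each received an ASO against NESPR, a long non-coding RNA. Each of the 3 groups had 3 libraries, 9 in all, and no untransfected cells were analysed here. All libraries share a single cell line, and the labels do not say whether replicates were separate cultures, so p-values measure only the spread between these libraries, which may be technical.

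Replication-dependent histone genes encode the linker histone H1 and the core histones H2A, H2B, H3 and H4, which package newly copied DNA. They are short, lack introns, and are transcribed mainly in S phase, when NPAT at the histone locus body activates them together with promoter-bound factors such as HINFP at H4 genes and POU2F1 at H2B genes. Their mRNAs end in a stem-loop bound by SLBP in place of a poly(A) tail. Tumour cell lines divide, so these genes are usually active in them.

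The RefSeq gene table placed 48 protein-coding histone genes in the windows, and 43 of them had a region. All 9 H2A genes, all 12 H2B genes and all 10 H3 genes had a region, against 4 of 6 H1 genes and 8 of 11 H4 genes. The 5 without a region were H1-1, the testis-specific H1-6, H4C6, H4C7 and H4C13. A start site was known from the RefSeq promoter table for 44 of the genes, and 39 of these starts lay inside a region.

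The promoters of 8 genes are printed because they hold the sequence elements by which the families in the cluster differ and because the results turn on several of them, H4C5 first. Each is the 150 bases before the start site in RefSeq on GRCh38.p14, read 5′ to 3′ on the gene's own strand. Capitals mark matches, on either strand, to the CCAAT box, the TATA box (TATAAA), the octamer ATTTGCAT, and GTCCG, the core of H4 site II; their positions are counted from the start site, with the base before it at -1. The stretches are chr6:26204460-26204609 (+ strand) for H4C5, chr6:26027284-26027433 (- strand) for H4C2, chr6:27823942-27824091 (+ strand) for H4C11, chr6:27831561-27831710 (- strand) for H4C12, chr6:27838419-27838568 (+ strand) for H2BC15, chr6:27814872-27815021 (+ strand) for H2BC14, chr6:27809901-27810050 (+ strand) for H3C10 and chr6:26156179-26156328 (+ strand) for H1-4.
H4C5: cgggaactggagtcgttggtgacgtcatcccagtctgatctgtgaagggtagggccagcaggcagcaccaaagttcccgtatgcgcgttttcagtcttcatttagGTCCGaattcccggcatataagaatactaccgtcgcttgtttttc
H4C2: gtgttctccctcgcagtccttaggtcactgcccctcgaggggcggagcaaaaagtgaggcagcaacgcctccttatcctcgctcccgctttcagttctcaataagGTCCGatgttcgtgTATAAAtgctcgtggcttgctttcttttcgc
H4C11: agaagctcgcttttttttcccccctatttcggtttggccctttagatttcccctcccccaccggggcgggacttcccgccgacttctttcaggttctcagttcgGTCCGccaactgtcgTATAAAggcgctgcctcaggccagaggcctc
H4C12: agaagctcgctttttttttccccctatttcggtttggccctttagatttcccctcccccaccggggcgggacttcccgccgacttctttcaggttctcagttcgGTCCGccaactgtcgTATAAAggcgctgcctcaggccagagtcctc
H2BC15: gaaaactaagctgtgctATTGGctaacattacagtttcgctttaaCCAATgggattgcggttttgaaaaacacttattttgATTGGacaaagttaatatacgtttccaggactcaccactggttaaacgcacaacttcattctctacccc
H2BC14: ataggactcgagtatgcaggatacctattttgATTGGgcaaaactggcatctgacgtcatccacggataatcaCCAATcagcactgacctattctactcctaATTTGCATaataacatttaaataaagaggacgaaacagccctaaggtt
H3C10: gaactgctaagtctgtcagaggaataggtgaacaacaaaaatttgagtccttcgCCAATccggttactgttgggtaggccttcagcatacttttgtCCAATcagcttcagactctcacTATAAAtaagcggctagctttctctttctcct
H1-4: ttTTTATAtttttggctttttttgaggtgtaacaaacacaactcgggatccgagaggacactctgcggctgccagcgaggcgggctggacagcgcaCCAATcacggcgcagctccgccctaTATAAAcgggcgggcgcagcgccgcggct

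The families differed in the motifs found before their starts. GTCCG was found in the 250 bases before the start, on either strand, in 8 of 9 H4 genes, and in the printed H4 sequences it began at position -45 in H4C5 and H4C2 and at -46 in H4C11 and H4C12. The same letters occurred in 2 of 8 H3 promoters and in none of the H1, H2A and H2B promoters, and 24.2% of all 35116 promoters in the table held them. The CCAAT box was present in all 6 H1, 9 H2A, 12 H2B and 8 H3 promoters and in 2 of 9 H4 promoters, against 32% of all promoters. The octamer, the letters read by POU2F1, was present in 7 of 9 H2A and 9 of 12 H2B promoters, in 1 of 8 H3 promoters, and in none of the H1 and H4 promoters, against 1.63% of all promoters. TATAAA was found in 63.6% of the 44 histone promoters and 10.7% of all promoters. No match overlaps another in the printed sequences, and a match is a description and not a bound site. The median GC content of the histone promoters was 40.6%, below the 58% of all promoters.

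Several promoters share their bases. The cluster held 8 pairs of neighbouring genes read away from each other, 7 of an H2A with an H2B gene and 1 of H3C7 with H2BC9. Their starts lay 194 to 979 bases apart with a median of 242. The promoter windows of each H2A and H2B pair overlap, and those of H3C7 and H2BC9, with starts 979 bases apart, do not. The table's window for H3C4, the H3 promoter with the octamer, was the one listed for H2AC7. The promoters of H4C11 and H4C12 differed at 5 of 250 bases (98% identity), whereas the next most alike pair, H2AC13 and H2AC14, had 82% identity and the median over 937 pairs was 26.8%. Coding sequences of histone genes are also nearly alike, and how reads that fit several places were handled is not given in the sources used here, so the division of reads among such copies is uncertain.

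Over the whole series, library totals ranged from 7293565 to 10948569 counts, 119417 regions had enough counts to be tested, and the biological coefficient of variation between replicates was 23.5%. Of 6 neuroblastoma marker genes (HAND2, GATA3, ISL1, TH, DBH and MYCN), 6 had a region within 1 kb; the strongest was at MYCN, which is known to be amplified in this line, and the weakest at TH, the first enzyme of catecholamine synthesis, with 0.765 to 3.22 CPM (counts scaled to library size) over the libraries.

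All 40 members passed the filter on low counts. Their count in a library ranged from 0 to 444 with a median of 131.5. The members were broad, with a median width of 1113 bases (177 to 3045), against 373 bases for all regions and 1002 bases for regions within 1 kb of the end of a protein-coding gene, called gene-end regions below. They covered 12.5% of the bases of the proximal window and 12.1% of the distal window.

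In the control group the 5 strongest regions each touched 2 histone genes. Levels are given as CPM scaled by TMM, the library-size scaling of edgeR. The region at H2AC15 and H2BC15, a divergent pair of core histone genes (chr6:27836923-27839060), had 41.0, 37.2 and 42.0 CPM in the NCA libraries, or 40.0 ± 2.52 (SD, n = 3). Next came the region at H3C8 and H2BC10 (chr6:26271050-26273757) with 32.4 ± 1.85 CPM (n = 3), that at H3C1 and H4C1 (chr6:26020160-26022321) with 32.2 ± 2.83 (n = 3), and that at the linker histone gene H1-4 and H2BC5 (chr6:26156239-26158742) with 30.9 ± 0.886 (n = 3). The NCA libraries of H3C8 with H2BC10 and of H3C1 with H4C1 overlapped, so their order is within the spread. The region at H2BC4 and H2AC6 (chr6:26122775-26124640) followed with 29.4 ± 4.40 CPM (n = 3), and its libraries overlapped those of the 3 regions before it but not those of H2AC15 with H2BC15. Its place is within the spread, as H2BC13 with H2AC13 also had 29.4 ± 3.20 CPM in NCA (n = 3), with overlapping libraries. The lowest member was a region of 177 bases inside the long RefSeq entry of H2BC5 (chr6:26166055-26166231), with 1.41 ± 0.672 CPM (n = 3).

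Per kb of region, levels in NCA ran from 3.61 to 23.6 CPM per kb with a median of 11.9. H2AC17 with H2BC17 was highest at 23.6 CPM per kb, followed by H2BC8 with H2AC8 at 21.8, H2BC13 with H2AC13 at 18.9 and H2AC15 with H2BC15 at 18.7. All 4 are divergent H2A and H2B pairs. The medians by family were 16.7 CPM per kb for the 9 regions at H2A genes, 14.1 for 14 at H2B, 12.9 for 11 at H3, 12.4 for 8 at H4 and 8.79 for 4 at H1, and a region that touches genes of several families counts in each. The 8 members at no histone gene had a median of 4.24 CPM, against 18.1 CPM for the 32 at histone genes. They were also narrower, with a median width of 515.5 bases against 1202.5. Per kb the gap was smaller, with medians of 9.26 and 12.5 CPM per kb, and the 8 reached 18.3. The highest of the 8 in CPM (chr6:27791307-27793036, 13.8 ± 1.61 CPM in NCA, n = 3) lay within 250 bases of the glutamine tRNA gene TRQ-CTG6-1. Another (chr6:26195429-26195934) covered the pseudogene H1-12P. The coefficient of variation among the NCA libraries had a median of 12.6% over the members, and it was above 20% for 10 of them.

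**Figure D1:**
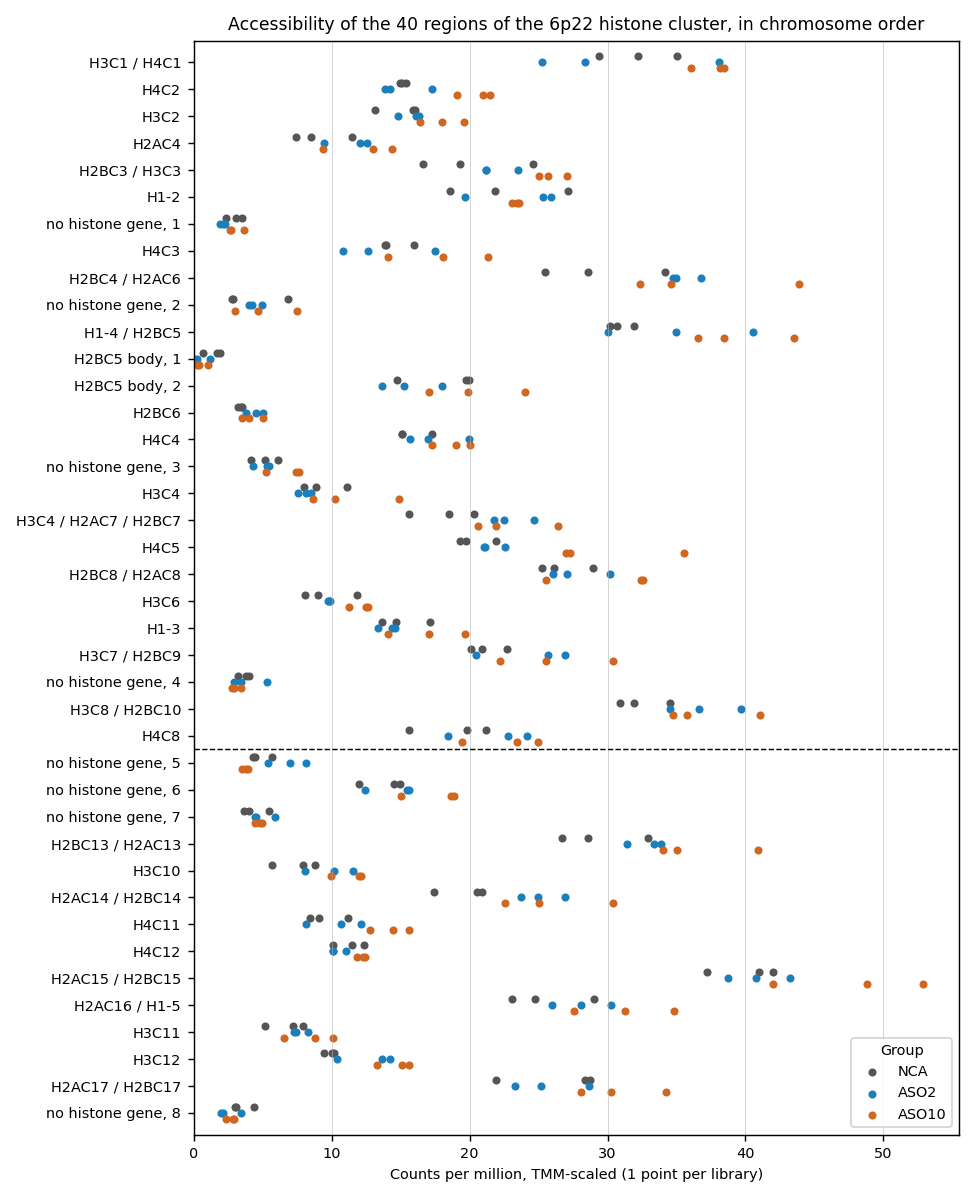
Accessibility of all 40 members in TMM-scaled CPM (x axis), 1 point per library, in chromosome order from top to bottom; the dashed line divides the proximal from the distal window. ASO10 points (orange) lie above all NCA points (grey) in 16 members, and the ASO2 points (blue) overlap those of NCA in 33; "no histone gene" marks the 8 members that touch none.

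ASO10 was compared with NCA to ask whether this oligonucleotide was accompanied by a change of accessibility in the cluster. H4C5 rose and was the only member past the threshold, and most other members at histone genes had higher values under ASO10 that did not pass. In such bulk libraries, more cells with an open site and a more open site per cell cannot be told apart. With the edgeR quasi-likelihood test, Benjamini-Hochberg adjusted over all tested regions, 1 of 40 members was called at an adjusted p under 0.05, against 1.09% of all tested regions (0.876% higher and 0.21% lower). Of 14531 tested gene-end regions, 283 were called higher and 18 lower. Of the 4305 gene-end regions at 4 to 5 log2 CPM, where H4C5 lies, 109 were higher and 3 lower. The members' 1 of 40 is near these shares, so nothing is read from the count. The number called over all regions moved with single libraries: 1297 regions were called in all, and 447, 803 and 502 without ASO10 replicates 1, 2 and 3, and 489, 596 and 728 without NCA replicates 1, 2 and 3. With loess offsets, which level the dependence of fold changes on abundance in each library, 682 regions were higher and 468 lower, against 1046 and 251. At an unadjusted p under 0.05 the members' count was 16 higher and 0 lower, against 6% and 4.55% of all tested regions and 13.8% and 3.17% of gene-end regions. The log2 fold change was above 0 in 36 of 40 members, with a median of 0.28 (a fold of 1.21). The median was -0.0067 over all tested regions, 0.08 over 14531 tested gene-end regions outside the cluster, and 0.17 over 85 tested regions of chromosome 6 between the windows. The last set includes regions at other replication-dependent histone genes, such as H2BC11 and H2AC11.

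H4C5 encodes histone H4, a core histone that pairs with H3, and its gene lies at chr6:26204610-26205021 inside a region of 1717 bases (chr6:26204046-26205762) that also holds its printed promoter. The region had 19.7, 19.3 and 21.9 CPM in the NCA libraries, 22.6, 21.0 and 21.1 in ASO2 and 35.5, 27.3 and 27 in ASO10. All ASO10 libraries lay above all NCA and all ASO2 libraries, with replicate 1 the highest, and the ASO2 libraries overlapped those of NCA. The raw counts behind these values were 153, 153 and 193 in NCA, 161, 196 and 230 in ASO2, and 303, 240 and 207 in ASO10. H4C5 rose under ASO10 by 0.56 ± 0.14 on the log2 scale (SE; edgeR adjusted p = 0.0133), or 1.47-fold. The call was lost without ASO10 replicate 1 (0.42, edgeR adjusted p = 0.341), without NCA replicate 1 (0.54, adjusted p = 0.103) and without NCA replicate 2 (0.52, adjusted p = 0.0968).

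No other member passed the test under ASO10, and the values nearest to it lay at H3 and H4 genes. H3C12, an H3 gene near the distal edge, had 10.2, 9.46 and 9.98 CPM in NCA and 13.3, 15.6 and 15.1 in ASO10, with no overlap between the groups (log2 fold change 0.57 ± 0.18 SE, edgeR adjusted p = 0.0996). H4C11 had 11.2, 8.45 and 9.08 CPM in NCA and 15.6, 12.7 and 14.5 in ASO10, again with no overlap (0.58 ± 0.19 SE, edgeR adjusted p = 0.112). H3C10, whose promoter above carries CCAAT boxes and a TATA box, had the highest fold change of all members, 0.60 ± 0.21 (SE; edgeR adjusted p = 0.147). Its libraries read 8.76, 5.67 and 7.94 CPM in NCA, 11.5, 8.05 and 10.2 in ASO2, and 9.97, 11.9 and 12.1 in ASO10. In H3C10 every ASO10 library lay above every NCA library, and the ASO2 libraries overlapped those of both other groups.

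The strongest regions lay higher by smaller amounts that did not pass the test. H2AC15 with H2BC15 had 48.8, 42.0 and 52.9 CPM under ASO10 (0.26 ± 0.12 SE on the log2 scale, edgeR adjusted p = 0.403). The lowest of these lay just above the highest NCA library. H1-4 with H2BC5 had 43.5, 38.5 and 36.6 CPM under ASO10 against 30.7, 31.9 and 30.2 in NCA, without overlap (0.36 ± 0.13 SE, edgeR adjusted p = 0.165). H2BC4 with H2AC6 had 32.4, 34.6 and 43.9 CPM against 28.6, 25.5 and 34.2, with overlap (0.32 ± 0.13 SE, edgeR adjusted p = 0.249). H3C8 with H2BC10 (0.19 ± 0.12 SE, edgeR adjusted p = 0.621) and H3C1 with H4C1 (0.22 ± 0.13 SE, edgeR adjusted p = 0.546) had the smallest log2 differences among these strong regions. At the other end, H1-2, a linker histone gene, had 18.6, 21.8 and 27.1 CPM in NCA and 23.6, 23.4 and 23.0 in ASO10 (0.05 ± 0.14 SE).

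The 3 ASO10 libraries lay above the 3 NCA libraries without overlap in 16 of 40 members, against 8.51% of all tested regions, and below them in 2, against 7.15%. By family this separation upward was seen in 7 of 11 regions at H3 genes, 7 of 14 at H2B, 5 of 8 at H4, 4 of 9 at H2A and 1 of 4 at H1. The share separated was not computed for gene-end regions, so these counts are not read as particular to histone genes. At an unadjusted edgeR p under 0.05, 13.8% of gene-end regions were higher under ASO10, against 6% of all tested regions. The medians of the log2 fold change were 0.32 for H2A, 0.32 for H3, 0.30 for H2B, 0.27 for H4 and 0.22 for H1, so the families lay close together. The 32 members at histone genes had a median of 0.29, with 31 above 0, and the 8 at no histone gene had 0.07, with 5 above 0. The proximal and distal windows had medians of 0.27 and 0.30. The lowest value, -1.39 ± 0.88 (SE; edgeR adjusted p = 0.612), came from the weak region of 177 bases inside H2BC5, which averaged 1.41 CPM in NCA and 0.539 in ASO10.

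**Figure D2:**
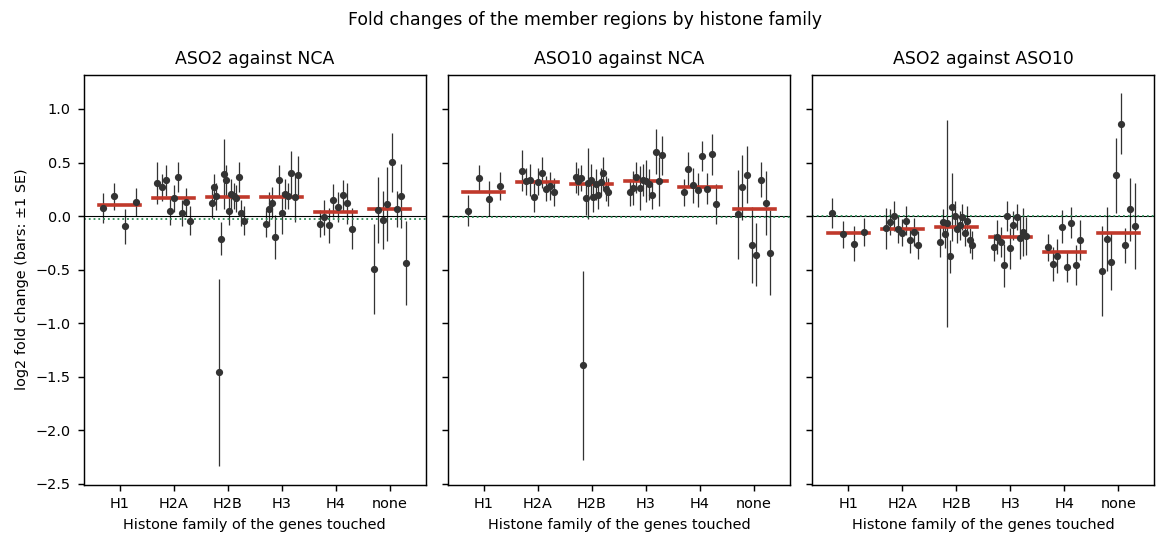
log2 fold changes (y axis) of the members by the histone family they touch (x axis) in the 3 comparisons; points are regions with bars of ±1 SE, red bars are family medians and the dotted line is the median of all tested regions. Under ASO10 all 5 family medians lie between 0.22 and 0.32; between ASO2 and ASO10 the H4 median is -0.33, the lowest of the families.

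ASO2 was compared with NCA by the same test. No member was called (0 of 40), against 5.6% of all tested regions (4.79% higher and 0.808% lower). Of 14531 tested gene-end regions, 94 were called higher and 151 lower. Over all regions 6687 were called, and 4110 without ASO2 replicate 2. At an unadjusted p under 0.05 edgeR gave 4 members higher and 0 lower, against 10.3% and 6.22% of all tested regions, so the higher count was no more than the background share; of gene-end regions 3.32% were higher and 7.37% lower. The smallest adjusted p was 0.122, and DESeq2 called 0 as well. The median log2 fold change was 0.10 (a fold of 1.07), against -0.02 over all tested regions, -0.05 over gene-end regions and 0.13 over chromosome 6 between the windows. It was above 0 in 28 of 40 members.

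The smallest adjusted p under ASO2 was at H2AC14 with H2BC14, a divergent pair (chr6:27814255-27815429) whose printed H2BC14 promoter holds CCAAT boxes and the octamer. It had 20.9, 17.4 and 20.5 CPM in NCA, 25.0, 23.7 and 26.9 in ASO2, and 30.4, 22.5 and 25.0 in ASO10. Both ASO groups lay above NCA without overlap, with log2 fold changes of 0.36 ± 0.14 (SE; edgeR adjusted p = 0.122) for ASO2 and 0.40 ± 0.14 (SE; edgeR adjusted p = 0.162) for ASO10. H3C12 had 10.4, 13.6 and 14.2 CPM under ASO2, above NCA without overlap (0.38 ± 0.18 SE, edgeR adjusted p = 0.259). H2BC4 with H2AC6 had 34.9, 34.8 and 36.8 CPM, also above NCA (0.27 ± 0.13 SE, edgeR adjusted p = 0.239). The strong regions at H2AC15 with H2BC15 (43.2, 38.7 and 40.7 CPM) and at H3C1 with H4C1 (25.3, 38.1 and 28.4 CPM) overlapped NCA, with log2 fold changes of 0.03 and -0.07.

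ASO2 libraries lay above NCA without overlap in 6 members, against 11.9% of all tested regions, and below in 1, against 8.57%. The 6 included 5 of 14 regions at H2B genes, 3 of 9 at H2A and 3 of 11 at H3, and none of the 8 at H4 or the 4 at H1. The H4 regions had a median log2 fold change of 0.04, with 4 above 0 and 4 below. The medians were 0.18 for H2B, 0.18 for H3, 0.17 for H2A and 0.10 for H1. Regions that touch genes of several families count in each of these. The family medians were not tested against each other.

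ASO2 was then compared with ASO10, both being directed against the same RNA. H4C5 was lower under ASO2 than under ASO10, and most members had lower values under ASO2. With the same edgeR test, Benjamini-Hochberg adjusted, 1 of 40 members was called, lower under ASO2, against 3.23% of all tested regions (2.54% higher and 0.682% lower). Of 14531 tested gene-end regions, 63 were called higher and 417 lower. Of the 4305 at 4 to 5 log2 CPM, 12 were higher and 171 lower, so nothing is read from the members' count. Over all regions 3853 were called, and 2234, 2412 and 2542 without ASO2 replicates 1, 2 and 3, and 2164, 2132 and 2089 without ASO10 replicates 1, 2 and 3. At an unadjusted p under 0.05 there was 1 member higher and 8 lower, against 8.52% and 6.07% of all tested regions. Of gene-end regions 2.27% were higher and 17.4% lower, the latter near the members' share. The log2 fold change was below 0 in 35 of 40 members, with a median of -0.18, against -0.0021 over all tested regions, -0.14 over gene-end regions and -0.04 between the windows. The separation without overlap was downward in 10 members, against 8.31% of all tested regions, and upward in 1, against 11%. Such shares were not computed for gene-end regions. This comparison shares its ASO10 libraries with the comparison of ASO10 against NCA.

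H4C5 had a log2 difference of -0.48 ± 0.14 between ASO2 and ASO10 (SE; edgeR adjusted p = 0.0251), from 21.6 ± 0.881 CPM under ASO2 to 29.9 ± 4.86 under ASO10 (SD, n = 3 each). This call was lost with DESeq2 (-0.48, adjusted p = 0.0593), with loess offsets (-0.39, edgeR adjusted p = 0.0644), and without ASO10 replicate 1 (-0.33, edgeR adjusted p = 0.371) or any of ASO2 replicates 1, 2 and 3 (edgeR adjusted p = 0.0666, 0.0799 and 0.0792). Without ASO2 replicate 2 the only member called was H3C1 with H4C1 instead (-0.48, edgeR adjusted p = 0.0327). With only the 2 groups compared in the fit, 3 members were called. These were H4C5, H4C2 and the region of 573 bases at chr6:27772348-27772920, which touches no gene.

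That last region had fold changes opposite in sign to the medians under ASO10 and between the ASOs. It had 5.67, 4.41 and 4.31 CPM in NCA, 8.14, 5.37 and 6.97 in ASO2, and 3.75, 3.53 and 3.91 in ASO10. All ASO10 libraries lay below those of both other groups, and ASO2 overlapped NCA. The log2 fold changes were 0.50 ± 0.28 (SE; edgeR adjusted p = 0.357) for ASO2 against NCA, -0.36 ± 0.30 (SE; edgeR adjusted p = 0.724) for ASO10 against NCA, and 0.86 ± 0.28 (SE; edgeR adjusted p = 0.0640) between the ASOs. A second region at no histone gene, of 291 bases at chr6:26066020-26066310, had the lowest value between the ASOs, -0.51 ± 0.42 (SE; edgeR adjusted p = 0.629). It was weak throughout, with 2.32, 3.03 and 3.52 CPM in NCA, 2.25, 2.15 and 1.93 in ASO2, and 3.64, 2.73 and 2.60 in ASO10. The region at TRQ-CTG6-1 had 15.4, 12.4 and 15.6 CPM in ASO2 and 15, 18.7 and 18.9 in ASO10, so its ASO10 values lay just above those of NCA (0.34 ± 0.16 SE, edgeR adjusted p = 0.432) and overlapped those of ASO2.

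The 8 regions at H4 genes had the lowest family median between the ASOs, -0.33, with all 8 below 0 (-0.48 to -0.06). The medians were -0.20 for H3, -0.16 for H1, -0.12 for H2A and -0.11 for H2B, and the difference between families was not tested. H4C2, which carries GTCCG and TATAAA at the printed positions, had 14.9, 15.4 and 15.1 CPM in NCA, 17.3, 13.8 and 14.2 in ASO2, and 21.0, 19.1 and 21.5 in ASO10. All ASO10 libraries of H4C2 lay above the other 6, and ASO2 lay on both sides of NCA (ASO2 against ASO10 -0.45 ± 0.16 SE, edgeR adjusted p = 0.0877; ASO10 against NCA 0.44 ± 0.16 SE, edgeR adjusted p = 0.181). H4C11 had 8.14, 12.1 and 10.6 CPM in ASO2, below all ASO10 libraries (-0.46 ± 0.18 SE, edgeR adjusted p = 0.174). H4C12, the near-copy of H4C11 by promoter, had 12.4, 10.1 and 11.5 CPM in NCA, 10.1, 10.1 and 11 in ASO2, and 12.4, 12.3 and 11.9 in ASO10. Its ASO10 libraries lay above those of ASO2 and overlapped NCA (-0.23 ± 0.19 SE against ASO10, edgeR adjusted p = 0.628).

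None of the other 4 H4 regions was called between the ASOs. H4C4 had group means of 15.8 ± 1.24, 17.5 ± 2.19 and 18.8 ± 1.39 CPM in NCA, ASO2 and ASO10 (SD, n = 3 each), and H4C8 had 18.9 ± 2.91, 21.8 ± 2.97 and 22.6 ± 2.85. In both, ASO2 overlapped ASO10, with log2 differences of -0.10 and -0.06. H4C3 had 14.6 ± 1.19, 13.7 ± 3.45 and 17.8 ± 3.63 CPM (SD, n = 3 each), with overlap among all groups (ASO2 against ASO10 -0.37 ± 0.16 SE, edgeR adjusted p = 0.227). H3C1 with H4C1 had a difference of -0.29 ± 0.13 (SE; edgeR adjusted p = 0.218), and its ASO2 libraries also overlapped ASO10. Both differences were larger in size than that of H4C12. At an unadjusted edgeR p under 0.05, 17.4% of gene-end regions were lower between the ASOs, against 6.07% of all tested regions. Of the 8 H4 regions, 4 separated ASO2 from ASO10 downward, against 8.31% of all tested regions, a share not computed for gene-end regions. None separated ASO2 from NCA, against 11.9% of all tested regions upward and 8.57% downward, so nothing is read from that absence.

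**Figure D3:**
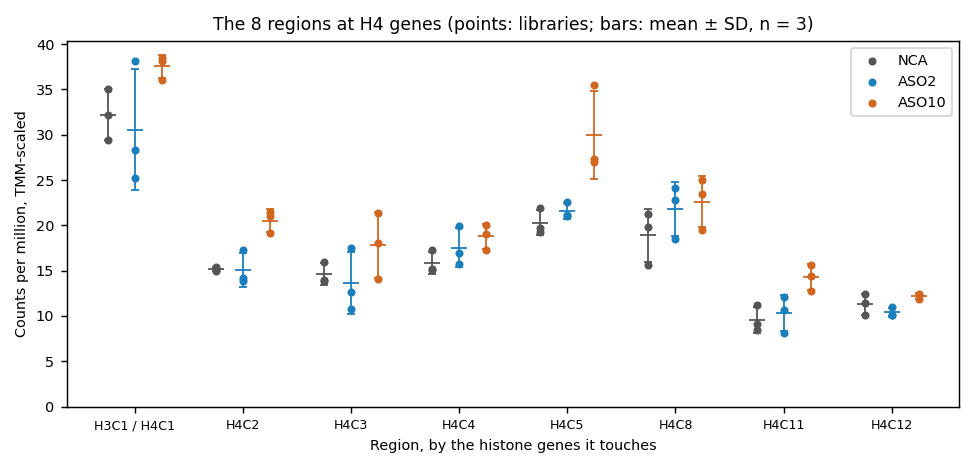
The 8 regions at H4 genes (x axis) in TMM-scaled CPM (y axis); points are libraries and bars give the mean ± SD of 3 libraries per group. At H4C5 the ASO10 libraries sit between 27 and 35.5, above all NCA and ASO2 libraries, while H4C12 stays between 10.1 and 12.4 in all groups.

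Summed over the 40 members, accessibility was 615, 609 and 660 CPM in the NCA libraries, 663, 697 and 668 in ASO2, and 785, 726 and 784 in ASO10. With TMM scaling the groups did not overlap. With RLE factors, another scaling, NCA replicate 3 (664.0 CPM) lay above ASO2 replicate 1 (663.4 CPM), and as a share of the library's total count it did so too (0.0654% against 0.0648%), so NCA and ASO2 overlapped under both. ASO10 lay above both other groups under each scaling. The means were 628 ± 27.7, 676 ± 18.2 and 765 ± 34.2 CPM (SD, n = 3 each), so the sum was 1.08-fold under ASO2 and 1.22-fold under ASO10 relative to NCA. As a share of each library's total count, the cluster held 0.0620%, 0.0661% and 0.0740% on average in NCA, ASO2 and ASO10. The H4 regions summed to 138, 141 and 174 CPM, a fold of 1.02 for ASO2 and 1.26 for ASO10. These sums are a description of the set and carry no test.

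**Figure D4:**
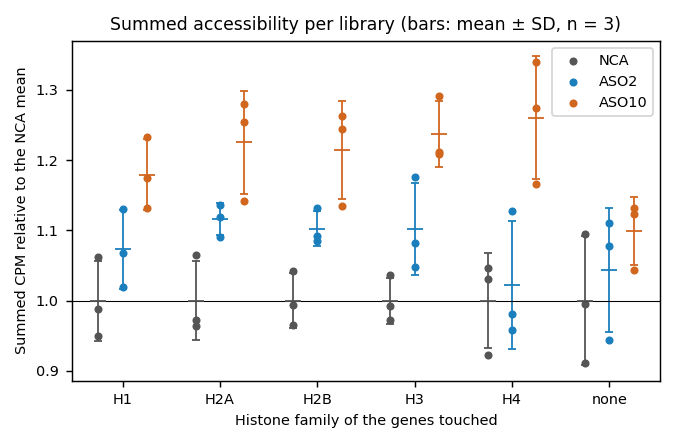
Summed CPM per library relative to the NCA mean (y axis) by histone family (x axis), with points for libraries and bars for mean ± SD of 3. ASO10 lies highest in every family, with means from 1.18 for H1 to 1.26 for H4, and ASO2 lies between NCA and ASO10, closest to NCA at H4 (1.02).

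In the range of 3 to 6 log2 CPM, which held 30 of the members, other regions also had medians above 0 under ASO10, though smaller ones than the members. Gene-end regions stronger than any member had medians of 0.23 (6 to 7 log2 CPM, 217 regions) and 0.31 (7 to 8, 6 regions), against 0.28 over all members. The share of counts in gene-end regions was 24.5% ± 0.913 in NCA, 23.7% ± 1.24 in ASO2 and 26.1% ± 0.725 in ASO10 (SD, n = 3 each), and its part in the result was not tested. Among regions of 4 to 5 log2 CPM, the median log2 fold change under ASO10 was 0.27 over 14 members, 0.10 over all other regions and 0.11 over gene-end regions. At 3 to 4 log2 CPM it was 0.33 over 10 members against 0.03 and 0.06, and at 5 to 6 it was 0.29 over 6 members against 0.15 and 0.17. With the loess offsets the median over the members was 0.19, with 35 above 0, and that over gene-end regions was 0.02. Between the ASOs, members of 4 to 5 log2 CPM had a median of -0.14, close to the -0.16 of gene-end regions. At 3 to 4 log2 CPM the members had -0.27 and gene-end regions -0.13. With loess offsets the medians between the ASOs were -0.30 for H4 and -0.17 for H3, against -0.33 and -0.20 with TMM. Those of H1, H2A and H2B were -0.04, -0.02 and -0.02, against -0.16, -0.12 and -0.11. Gene-end regions had a loess median of -0.10 between the ASOs, and of -0.15 at 3 to 4 log2 CPM, near that of H3.

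**Figure D5:**
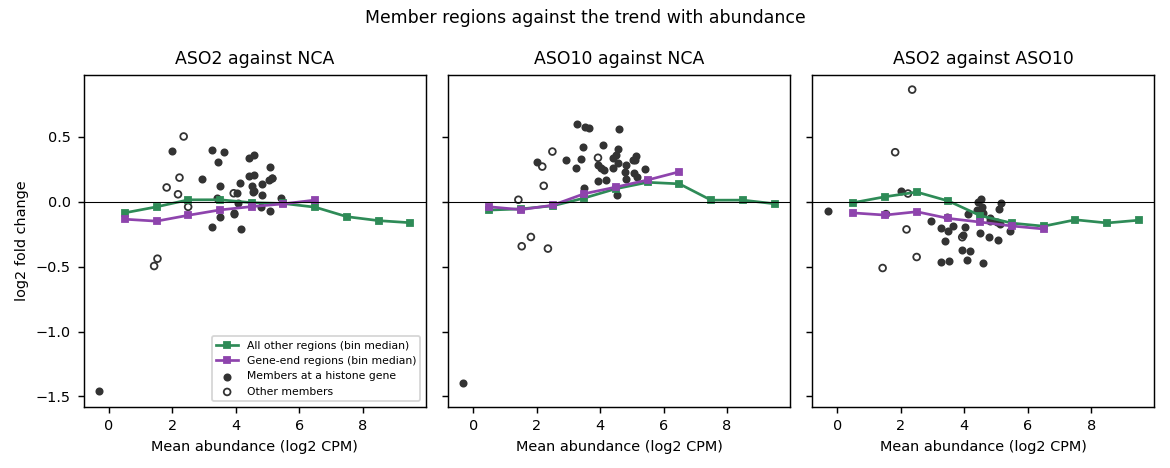
log2 fold change (y axis) against mean abundance in log2 CPM (x axis) for the members (filled points at histone genes, open points elsewhere), with bin medians of all other regions (green) and gene-end regions (purple). Under ASO10 most members between 3 and 5 log2 CPM lie above both lines, and between ASO2 and ASO10 the members at 4 to 5 scatter around the gene-end line.

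Histone genes outside the windows were examined through lists of genes, each taken with the regions that overlap the gene or lie within 1 kb of it. Their calls stand against the shares of all tested regions given above: 4.79% higher and 0.808% lower under ASO2, 0.876% and 0.21% under ASO10, and 2.54% and 0.682% between the ASOs. Strong gene-end regions were called more often under ASO10 and between the ASOs. Of 1839 at 5 to 6 log2 CPM, 112 were higher and 0 lower under ASO10. Between the ASOs, 5 of these were higher and 141 lower. Calls at strong list regions are therefore not read as an excess, which was not tested. At other replication-dependent histone genes, on chromosome 6 between the windows and on chromosomes 1 and 12, 14 of 14 regions were tested. ASO10 had 1 higher, at the divergent pair H2BC11 and H2AC11, which rose by 0.47 ± 0.12 (SE; edgeR adjusted p = 0.0134) from 37.1, 41.1 and 41.0 CPM in NCA to 56.4, 50.4 and 58.1. ASO2 had 1 lower, at H2BC12 and H4C9, which fell from 9.40, 11.6 and 10.7 CPM in NCA to 7.72, 5.58 and 6.06 (-0.72 ± 0.22 SE, edgeR adjusted p = 0.0219). DESeq2 called 0 of the 14 under ASO2 and 2 under ASO10, and loess offsets left 0 under ASO10. Between the ASOs 0 of the 14 were called by edgeR, with 4 lower and 0 higher at an unadjusted p under 0.05, and 0 by DESeq2. The medians of the log2 fold change were 0.07 for ASO2, 0.25 for ASO10 and -0.21 between them, with 13 of 14 above 0 under ASO10. Some of the 14 were strong, as at H2AC20, H2AC21 and H2BC21 (80.0 CPM in NCA). Gene-end regions of 5 to 6 and 6 to 7 log2 CPM had similar medians, 0.17 and 0.23 under ASO10. Between the ASOs they had -0.19 and -0.21. With loess offsets the medians of the 14 were 0.12 under ASO10 and -0.014 between the ASOs, with 12 and 6 above 0.

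Replication-independent histone genes encode variants such as H3.3, H2A.Z and the centromeric CENP-A that are made outside S phase as well. Of their 18 regions 17 were tested. Under ASO2 0 were called by edgeR and by DESeq2, with 0 higher and 1 lower at an unadjusted p under 0.05. Under ASO10 2 were higher, at CENPA and H2AZ2, and between the ASOs 3 were lower under ASO2, at H3-3A, CENPA and H2AZ2. H3-3A, which encodes H3.3, had 61.6, 57.1 and 59.3 CPM in NCA, 53.0, 56.2 and 47.3 in ASO2 and 72.6, 72.1 and 76.4 in ASO10. It was lower under ASO2 than under ASO10, a log2 difference of -0.50 ± 0.11 (SE; edgeR adjusted p = 0.000794). Both ASO2 and NCA lay below all ASO10 libraries at H3-3A.

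Regions at genes for the transcription of histone genes and the processing of their mRNAs numbered 85, of which 71 were tested. ASO2 had 5 higher and 0 lower, ASO10 had 2 higher and 0 lower, and between the ASOs 2 were higher and 1 lower under ASO2. The 5 of 71 are near the 4.79% of all tested regions higher under ASO2, so nothing is read from the count. They lay at POU2F1 (2 regions), the octamer-binding factor, at ERI1 (2 regions), a nuclease that trims the histone mRNA end, and at CPSF3, the endonuclease that cuts histone pre-mRNA. The strongest change was at chr1:167278071-167278615 in POU2F1, with 1.55, 2.14 and 1.93 CPM in NCA, 7.58, 9.98 and 5.50 in ASO2 and 2.35, 3.87 and 1.82 in ASO10. There ASO2 rose over NCA by 2.02 ± 0.34 (SE; edgeR adjusted p = 5.37e-07) and over ASO10 by 1.5 ± 0.32 (SE; edgeR adjusted p = 0.000504). A second region in POU2F1 (chr1:167382340-167383099) rose under ASO2 by 1.54 ± 0.33 (SE; edgeR adjusted p = 0.000276), the ERI1 region at chr8:9011995-9012305 by 1.80 ± 0.38 (SE; edgeR adjusted p = 0.000236) and the CPSF3 region at chr2:9430613-9431272 by 1.14 ± 0.26 (SE; edgeR adjusted p = 0.000648). These 4 regions were weak in NCA, from 1.60 CPM on average at ERI1 to 3.94 at CPSF3. POU2F1 held 28 of the 85 regions. Its region over the lower-coordinate end of the gene (chr1:167219984-167222649) averaged 75.8 CPM in NCA. It was not called under ASO2 (0.15 ± 0.10 SE, edgeR adjusted p = 0.518). The 2 called under ASO10 lay at HINFP, the factor that binds H4 promoters (28.7 ± 2.58 CPM in NCA and 39.2 ± 0.607 in ASO10, SD, n = 3 each), and at CDK2, the kinase that acts on NPAT.

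Histone chaperones carry histones to DNA or place them on it. Of 42 regions at their genes 37 were tested. ASO2 had 0 higher and 1 lower, at NAP1L1, and ASO10 had 3 higher and 0 lower. The 3 lay at CHAF1A, a subunit of the complex that deposits H3 and H4 behind the replication fork, at ASF1B, which hands H3 and H4 to it, and at UBN1, part of the complex that deposits H3.3. UBN1 (chr16:4846540-4848386) had 28.3, 27.5 and 24.1 CPM in NCA, 24.8, 32.2 and 18.4 in ASO2 and 40.9, 32.0 and 36.3 in ASO10. Its log2 fold change was 0.45 ± 0.13 (SE; edgeR adjusted p = 0.0480) for ASO10 against NCA and -0.54 ± 0.13 (SE; edgeR adjusted p = 0.00326) for ASO2 against ASO10. In all, 4 chaperone regions were lower under ASO2 than under ASO10 and 0 higher.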

How the data were processed

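The authors deposited whole-number counts for 148797 regions, a single table for all 9 libraries, with no normalization, as the values show. Per the submitters' processing notes the tools included FastQC, Bowtie2 2.2.6, SAMtools, MACS2 2.1.2 and DESeq2 1.42.0, and the builds hg38 and GRCh38, with no role or order. Whether reads, pairs or cut sites were counted, how Tn5 insertion sites were shifted, and how reads that fit several places were treated are not given in the sources used here. The labels give RNA as the molecule, while their protocol describes tagmented genomic DNA, and the protocol was followed.

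The filterByExpr function, given the groups, kept 119417 regions, and TMM factors scaled the libraries. Totals of 7293565 to 10948569 counts limit precision mainly in weak regions. Each comparison used the robust quasi-likelihood test of edgeR 4.0.16 in R 4.3.3 on all 9 libraries with group as the only term, with Benjamini-Hochberg adjustment over all tested regions and a threshold of 0.05. The design was tested on simulated counts. SEs are derived from the fold change and its F statistic. Gene positions and promoters came from RefSeq on GRCh38.p14, coordinates are those of the region names, and the promoters of H4C1, H4C3, H3C11 and H3C12 were not used here. Motifs were searched on both strands.

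The members and the gene lists were chosen with earlier results of these data known. Named members were those called in any comparison, the 5 strongest, the strongest of each family, the highest and lowest fold change in each comparison and the strongest at no histone gene; the 6 list regions with the smallest adjusted p were named too. H4C2, H4C11, H4C12 and the other H4 regions, H3C12, H1-2, H2AC14 with H2BC14, and further list genes were named after their values were seen.

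Alternatives were DESeq2 1.42.0, RLE factors, total counts, loess offsets (limma 3.58.1, span 0.3), a replicate block, a minimum of 10 counts per library, no filter, fits to only the groups compared, an absolute log2 fold change over 1, only members at a histone gene, a touch distance of 1000 bases, and leaving out each library.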

Additional observations from a re-analysis of the deposited data

Results flagged for a closer look

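The region at H4C5 differed between the ASOs. Its log2 fold change for ASO2 against ASO10 was -0.48 (edgeR adjusted p = 0.0251), tested directly between the 2 groups that received an oligonucleotide against the same RNA, and all 3 ASO2 libraries lay below all 3 ASO10 libraries. The call was lost with DESeq2 (adjusted p = 0.0593), with loess offsets (edgeR adjusted p = 0.0644), without ASO10 replicate 1 (edgeR adjusted p = 0.371) and without any of ASO2 replicates 1, 2 and 3 (edgeR adjusted p = 0.0666, 0.0799 and 0.0792), 6 of 17 alternatives.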

How the results depend on the processing

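Of 938 recomputed values for 58 results, 819 had an unchanged direction and call, or (for counts and values without a test) moved little, and 119 did not; the cause was not tested. Members called under ASO10 against NCA numbered 0 with an absolute log2 fold change over 1, and 0 to 1 when each library was left out. Between the ASOs they numbered 0 with DESeq2, with loess offsets and with an absolute log2 fold change over 1, 3 with at least 10 counts in every library or only the groups compared, and 0 to 1 when each library was left out. Under ASO2 against NCA the count was 0 under every alternative. The region at chr6:27772348-27772920 was called between the ASOs with at least 10 counts (0.87, edgeR adjusted p = 0.0347) and with only the groups compared (0.84, edgeR adjusted p = 0.0496). The members' median under ASO10 was 0.19 with loess offsets, and under ASO2 it ran from 0.032 to 0.14 when each library was left out.

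Over all regions DESeq2 called 686 under ASO10 and 2424 between the ASOs, against 1297 and 3853. Several list counts moved. For chaperones, ASO2 against NCA gave 2 with total counts, loess offsets, at least 10 counts or only the groups compared (0 to 1 when each library was left out), ASO10 gave 1 with loess offsets (0 to 3), and the ASOs against each other gave 2 with DESeq2 (1 to 5). For transcription and processing factors, ASO10 gave 1 with total counts or no filter, 0 with loess offsets or the replicate block, 5 with at least 10 counts and 4 with only the groups compared (0 to 2), and the ASOs against each other gave 1 with DESeq2 (1 to 3). For other replication-dependent genes, ASO2 gave 0 with DESeq2 (0 to 1), and ASO10 gave 2 with DESeq2 and 0 with loess offsets (0 to 1). For replication-independent genes, ASO10 gave 1 with DESeq2, total counts or no filter and 0 with loess offsets or the replicate block (0 to 2), and the ASOs against each other gave 1 with loess offsets (1 to 3).

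Directions near 0 turned. At chr6:26066020-26066310, ASO10 against NCA gave -0.014 with total counts, -0.0088 with at least 10 counts, and -0.15 to 0.17 when each library was left out. Between the ASOs, H3C8 with H2BC10 gave 0.0066 with total counts, 0.13 with loess offsets and -0.066 to 0.068 when each library was left out, H2BC4 with H2AC6 gave 0.083 with loess offsets and -0.14 to 0.085, and the weak H2BC5 region gave -2.04 to 0.77. Against NCA under ASO2, leaving out each library gave -0.26 to 0.047 at H3C1 with H4C1, -0.030 to 0.17 at TRQ-CTG6-1 and -0.027 to 0.067 at H2AC15 with H2BC15.

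Libraries with the same replicate number did not visibly deviate together (correlations -0.036 to 0.013 over 9 pairs). With many weak regions and 3 libraries per group, such correlations cannot exclude a pairing. With the replicate block, members called numbered 0, 1 and 1 in the 3 comparisons, H4C5 gave 0.55 under ASO10 (edgeR adjusted p = 0.0294) and -0.47 between the ASOs (edgeR adjusted p = 0.0446), the members' medians were 0.10, 0.28 and -0.18, and the lists gave the changes above. Depth limits the weak members most, as the region inside H2BC5 had 0 counts in 1 library.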
